A study of Mus musculus with 12 samples.

Results

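Plagl1 and 9 further imprinted genes that are expressed together with it in mouse tissues were followed in blood stem cells and myeloid precursors of newborn mice whose transcription factor PU.1 carried the Q202L substitution. The genes were Plagl1, Igf2, H19, Cdkn1c, Dlk1, Peg3, Grb10, Igf2r, Ndn and Mest. They were found through the platform annotation of the array, which gave 29 probe sets for these 10 genes, out of 45037 probe sets tested and 18193 genes with a probe set of a single symbol. A probe set is a group of short oligonucleotide probes that reads 1 transcript or a few of them. The brightest probe set of each gene, by its average over the 12 arrays, leads here, and the other 19 serve as checks. Plagl1 was put forward because of its difference between knock-in and wild-type stem cells in these same arrays, so that difference is given without a test. The set was assembled with results of these arrays already known.

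Each array measured 1 sorted sample of newborn liver, with 3 samples in each of 4 groups. The knock-in (KI) groups came from PU.1 Q202L mice, which the study used as homozygotes bred from heterozygous parents, and the wild-type (WT) groups from littermates. ST-HSC, short-term hematopoietic stem cells, were sorted as lin-, Sca-1+, c-kit+ and CD150- cells, and GMP, granulocyte-macrophage progenitors, as lin-, Sca-1-, c-kit+ cells with high Fc gamma receptors. The sample records give CD48+ for the ST-HSC gate and CD34+ for both GMP groups, while the study's methods give CD48- for the ST-HSC, and its text gives an intermediate CD34 level for the KI cells, which are therefore called GMP-like. The sample records give newborns taken at or shortly before birth, and the study's text fetal livers of embryos. The records give strain C57Bl/6, and the study's animal summary a mixed background. The mutation was present in the germ line and so in every cell of the KI animals. The values are log2 values after robust multi-array averaging (RMA), and a difference of 1 is a 2-fold difference. The records do not say how many animals each sample held, so the p-values below cover only the variation from sample to sample, and part of it may be technical.

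Array medians were 5.00 to 5.10 in ST-HSC and 4.698 to 4.788 in GMP, so levels across the populations are a description only. Spi1, the gene of PU.1, differed by 0.17 in ST-HSC and 0.39 in GMP and was not called in either. The array does not read the point mutation. The WT arrays 1 and 3 of both populations had Xist at 10.67 to 11.74, and the other 8 arrays, all KI arrays among them, at 2.98 to 3.78. Xist is transcribed from the inactive X chromosome of female cells, so these 4 WT arrays differ from the KI arrays in this respect as well as in genotype. Among the genes of the sort gates, Cd34 fell by 1.41 in ST-HSC (adjusted p = 0.00103, limma) and fell by 2.87 in GMP (adjusted p = 6.98e-06, limma), and Slamf1, which encodes CD150, rose by 1.92 in ST-HSC (adjusted p = 0.00132, limma). Fcgr3, which encodes an Fc gamma receptor of the GMP gate, rose by 1.68 in ST-HSC (adjusted p = 0.00165, limma). Of 8 hepatocyte genes, 2 fell in each population, Afp and Hnf4a. The mean level of the 8 was 5.82 to 6.00 in KI ST-HSC against 6.57 to 7.46 in WT ST-HSC, and 5.10 to 5.57 in KI GMP-like cells against 5.74 to 6.98 in WT GMP. The mean levels of 3 other lists lay apart in ST-HSC, and those of the erythroid list also in GMP. In KI and WT ST-HSC, 6 erythroid genes were at 5.50 to 5.83 and 4.87 to 4.96, 6 endothelial genes at 5.51 to 5.78 and 5.19 to 5.43, and 7 stromal genes at 5.18 to 5.41 and 4.62 to 5.05. For the KI GMP-like and WT GMP arrays, the erythroid genes were at 4.86 to 5.19 and 4.02 to 4.60, the endothelial genes at 4.94 to 5.54 and 5.12 to 5.18, and the stromal genes at 4.77 to 4.98 and 4.58 to 4.89. In every group, 3 or 4 genes of the erythroid, the endothelial and the stromal list each had a mean below the median level of all probe sets. The part of these lists in the results below was not tested.

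Imprinted genes are transcribed from only one parental copy, which is set by DNA methylation laid down in egg or sperm. Many of them govern fetal growth, those expressed from the paternal copy mostly in favor of growth and those from the maternal copy mostly against it. Plagl1, also called Zac1, encodes a zinc finger transcription factor that arrests the cell cycle, and in mice its product regulates other imprinted genes and binds an enhancer shared by Igf2 and H19. In blood, imprinted genes such as H19 and Cdkn1c are known for keeping stem cells quiescent.

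RefSeq (GRCm38.p6) gave 14 start sites for 8 of the 10 genes. The 250 bases before the start are shown for the 3 genes that stood out among the results with a promoter in that table, with each CpG, the dinucleotide at which imprints are written, in capitals. They are the start sites of Plagl1 at chr10:13090582-13090831 on the plus strand, of the CpG-rich start of Grb10 at chr11:12037421-12037670 on the minus strand, and of Igf2r at chr17:12769707-12769956 on the minus strand.
Plagl1: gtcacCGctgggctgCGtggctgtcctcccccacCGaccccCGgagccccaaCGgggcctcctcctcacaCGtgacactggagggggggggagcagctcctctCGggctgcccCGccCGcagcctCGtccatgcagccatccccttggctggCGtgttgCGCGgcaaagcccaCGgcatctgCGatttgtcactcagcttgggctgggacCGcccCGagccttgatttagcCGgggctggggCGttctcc
Grb10: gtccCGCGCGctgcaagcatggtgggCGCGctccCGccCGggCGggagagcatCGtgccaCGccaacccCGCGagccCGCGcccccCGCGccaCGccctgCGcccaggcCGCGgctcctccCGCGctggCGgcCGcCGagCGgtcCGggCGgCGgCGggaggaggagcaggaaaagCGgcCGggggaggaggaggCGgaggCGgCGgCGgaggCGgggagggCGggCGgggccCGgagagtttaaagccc
Igf2r: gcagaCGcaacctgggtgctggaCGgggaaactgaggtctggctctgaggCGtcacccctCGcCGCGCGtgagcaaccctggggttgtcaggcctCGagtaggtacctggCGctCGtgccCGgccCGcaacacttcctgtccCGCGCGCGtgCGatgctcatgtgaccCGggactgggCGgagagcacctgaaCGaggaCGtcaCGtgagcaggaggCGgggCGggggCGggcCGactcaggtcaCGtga
These windows hold 19, 40 and 27 CpG, against a median of 6 over all 32851 promoter windows of the same length. Fewer CpG than in the Grb10 window were found in 98.7% of all windows, than in the Igf2r window in 91.4%, and than in the Plagl1 window in 80.3%. A second start of Grb10, at chr11:12027972-12028221, holds 8 CpG. On either strand, the GGGGCCCC palindrome, which the Plagl1 protein binds, occurred in 1 of the 14 windows, that of Peg3, and in 0.889% of all windows. The PU.1 motif GAGGAAGT was found in none of the 14 windows and in 2.44% of all windows, and the AP-1 motif TGANTCA in none of the 14 and in 6.75% of all. No array value tells which of several start sites was used.

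The probe set that leads for H19 is annotated to both H19 and Mir675, a microRNA gene that lies inside the H19 transcript, so it reads the host RNA and gives no level of the mature microRNAs. The mature sequences from RefSeq are shown because the H19 transcript that changed below contains them, at chr7:142577112-142577133 for the 5p arm and chr7:142577078-142577099 for the 3p arm on the minus strand, with the seed (bases 2 to 8) in capitals.
miR-675-5p: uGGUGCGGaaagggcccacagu
miR-675-3p: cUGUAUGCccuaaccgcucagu
The seeds of the arms differ from each other.

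Plagl1 itself was highest in KI cells. In KI ST-HSC it read 9.44, 10.22 and 10.60, and in WT ST-HSC 5.53, 5.21 and 6.46. The KI arrays all lay far above the WT arrays, with means of 10.09 ± 0.588 and 5.73 ± 0.652 (SD, n = 3), a difference of 4.35 or 20.4-fold. Only 4 of the 18193 genes had a larger rise in ST-HSC by their leading probe sets. In KI GMP-like cells Plagl1 read 7.92, 10.14 and 9.76, and in WT GMP 7.79, 7.39 and 8.09. KI array 1 lay inside the WT range and the other KI arrays above it. The GMP difference of 1.51 (SE 0.549, 95% CI 0.29 to 2.72) did not pass the test (adjusted p = 0.221, limma). Without KI GMP-like array 1 it was 2.19 with an adjusted p of 0.0343 (limma). That array is the lowest KI array, so leaving it out can only raise the difference, and this value is no separate result.

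In order of level, KI ST-HSC came first with 10.09, then KI GMP-like cells with 9.27 ± 1.19, WT GMP with 7.76 ± 0.351 and WT ST-HSC with 5.73. The ranges of the KI groups overlapped, as did those of KI GMP-like cells and WT GMP, whereas WT GMP and WT ST-HSC did not overlap. This order was the same after each array's median was subtracted. Among the WT cells Plagl1 was thus higher in GMP than in ST-HSC, and among the KI cells the ranges overlapped. The KI minus WT difference in GMP minus that in ST-HSC was −2.84, which is given without a test.

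The other probe sets of Plagl1 moved less. Probe set 1450533_a_at read 6.11, 6.74 and 7.76 in KI ST-HSC against 5.14, 5.71 and 3.84 in WT ST-HSC, a difference of 1.97, and all KI arrays lay above the WT arrays. In GMP its difference was 0.19. Probe set 1438588_at differed by 0.43 in ST-HSC and 0.29 in GMP. All 3 probe sets thus had a higher KI mean in both populations, with sizes that differed widely between them.

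**Figure D1:**
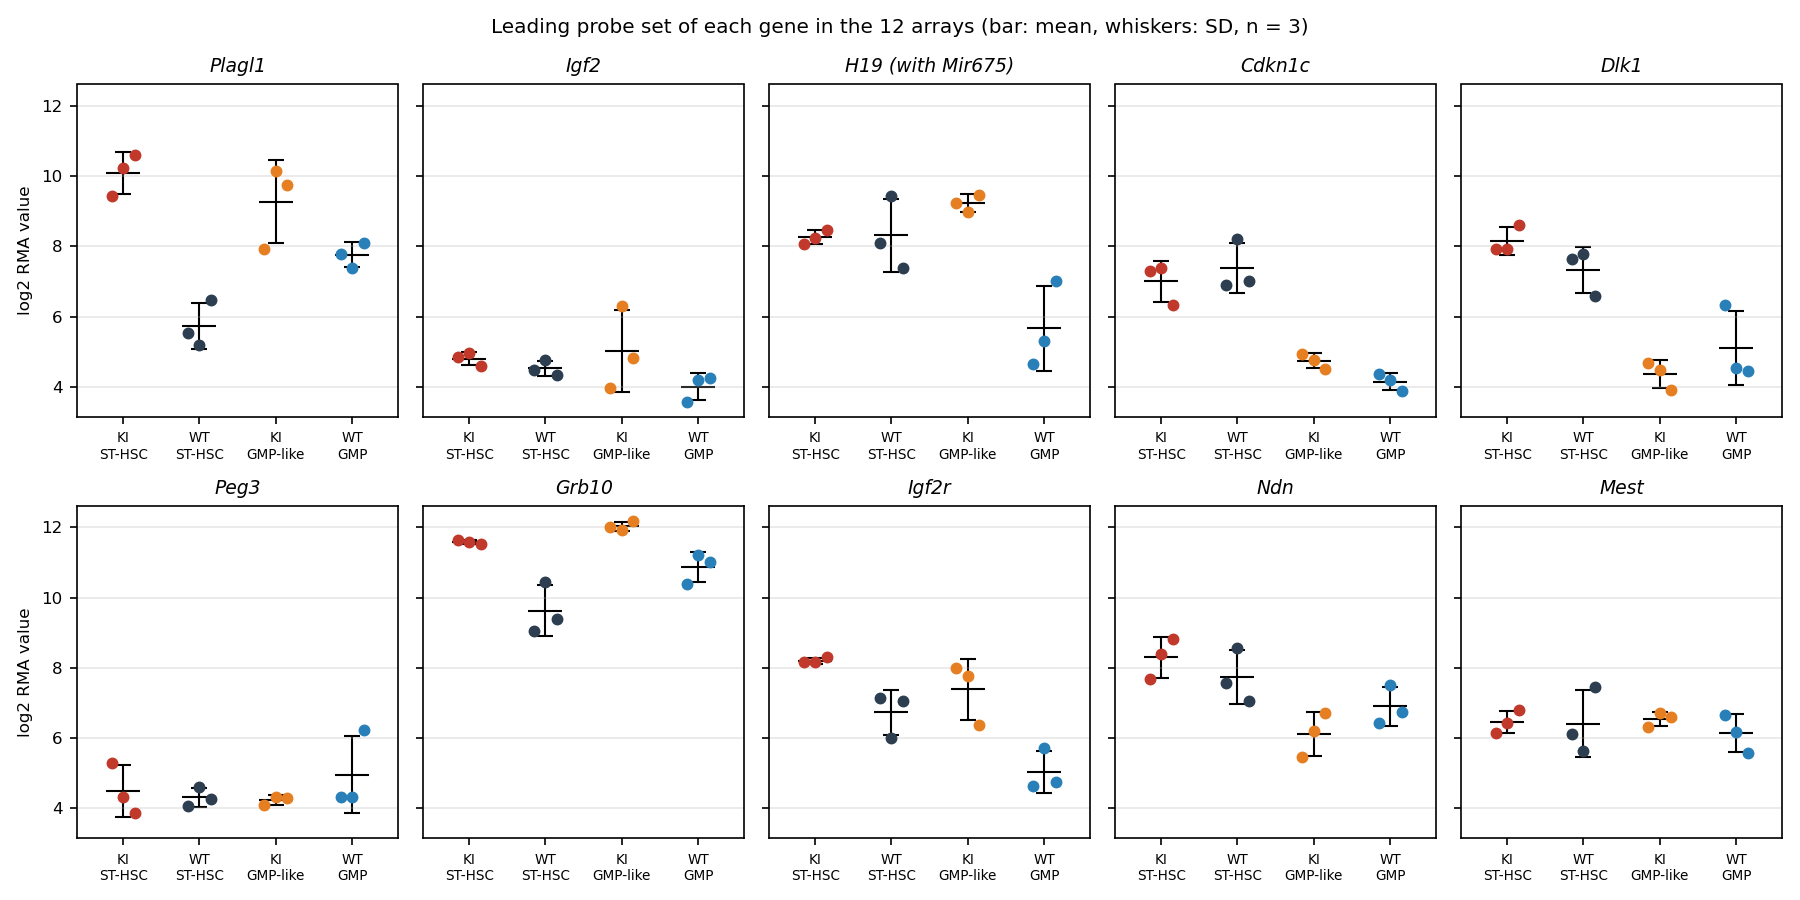
Log2 RMA values (y axis) of the leading probe set of each gene in the 4 groups (x axis), 1 point per array, with a bar for the mean and whiskers for the SD of 3 arrays. All KI arrays lie above all WT arrays for Plagl1 and Dlk1 in ST-HSC, Grb10 and Igf2r in both populations, and H19 and Cdkn1c in GMP. Not all of these differences were called. Plagl1 KI GMP-like array 1 (7.92) lies inside the WT range.

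Every member that passed the test was among Grb10, Igf2r, H19 and Cdkn1c, the genes expressed from the maternal copy. This grouping was made after the values were seen, and Plagl1, of the paternal copy, was not tested in ST-HSC. Grb10 rose in ST-HSC, H19 and Igf2r rose in GMP, and Cdkn1c passed in neither. Counted over the leading probe sets, 1 of 9 genes (Plagl1 left out) rose in ST-HSC, where 1.33% of all genes were called higher, and 2 of 10 rose in GMP, where 1.19% were. None of the 10 genes fell in either population by its leading probe set, while 1.68% of all genes fell in ST-HSC and 1.4% in GMP. Since the genes were chosen with results known, these shares carry no test.

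Grb10 encodes an adaptor protein that binds the insulin and insulin-like growth factor 1 receptors and dampens their signal. Grb10 read 11.65, 11.59 and 11.53 in KI ST-HSC and 9.04, 10.45 and 9.40 in WT ST-HSC. The KI arrays were nearly equal and all above the WT arrays, of which array 2 was the highest. The means of 11.59 ± 0.0623 and 9.63 ± 0.736 (SD, n = 3) differed by 1.96 (SE 0.324, 95% CI 1.24 to 2.68), or 3.89-fold (adjusted p = 0.0104, limma). Against WT array 2 alone, the WT array of low Xist, the KI mean was higher by 1.13 (adjusted p = 0.0320, limma), and with Xist as a covariate by 1.34 (adjusted p = 0.0314, limma).

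In GMP, Grb10 read 12.005, 11.92 and 12.18 in KI and 10.38, 11.22 and 11.01 in WT. The KI arrays again all lay above the WT arrays. The difference of 1.17 (SE 0.324, 95% CI 0.45 to 1.88) did not pass (adjusted p = 0.104, limma), and without WT ST-HSC array 2 the same difference had an SE of 0.210 and an adjusted p of 0.0230. The difference between the populations, −0.79, was not called (adjusted p = 0.738, limma). All 3 Grb10 probe sets were called higher in ST-HSC, as 1.02% of all probe sets were, with 2.51 for 1425457_a_at and 1.84 for 1430164_a_at, and none of them in GMP, where they differed by 1.48 and 1.16. In both scales the order was KI GMP-like, KI ST-HSC, WT GMP and WT ST-HSC. The ranges of WT GMP and WT ST-HSC overlapped as deposited.

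Igf2r encodes the receptor that takes up insulin-like growth factor 2 for breakdown. In GMP, Igf2r read 8.002, 7.77 and 6.38 in KI and 4.64, 5.71 and 4.75 in WT. All KI arrays lay above all WT arrays, KI array 3 closest to them. The difference was 2.35 (SE 0.449, 95% CI 1.36 to 3.34), or 5.10-fold (adjusted p = 0.0269, limma). A second probe set, 1424111_at, read 6.79, 6.17 and 6.35 in KI against 3.34, 4.71 and 5.12 in WT, and was called as well (2.05, adjusted p = 0.0374, limma). The Igf2r call was lost when KI GMP-like array 1 (adjusted p = 0.0724) or 2 (0.0709), WT GMP array 1 (0.0872) or 3 (0.0855) or KI ST-HSC array 2 (0.0534) was left out, all by limma, with differences of 2.04 to 2.35. Against WT array 2 alone the KI mean was higher by 1.68 (adjusted p = 0.293, limma).

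In ST-HSC, Igf2r read 8.15, 8.16 and 8.30 in KI and 7.14, 6.01 and 7.05 in WT. The groups did not overlap, but the difference of 1.47 (SE 0.449) did not pass (adjusted p = 0.156, limma), and 1424111_at went the other way with −0.20. The remaining probe set, 1440979_at, is annotated to both Igf2r and Airn, the noncoding RNA transcribed antisense to it, and cannot be assigned to either. It differed by 0.49 in ST-HSC and −0.25 in GMP and was not called. The difference of the Igf2r effect between the populations was 0.88 (adjusted p = 0.802, limma).

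H19 is a long noncoding RNA expressed from the maternal copy next to Igf2, and restrains growth in the mouse fetus. In GMP the probe set annotated to H19 and Mir675 read 9.24, 8.97 and 9.47 in KI and 4.66, 5.30 and 7.02 in WT. The KI arrays lay close together and the WT arrays were spread out below them, WT array 3 the highest. The means of 9.23 ± 0.251 and 5.66 ± 1.22 (SD, n = 3) differed by 3.57 (SE 0.589, 95% CI 2.26 to 4.87), or 11.8-fold (adjusted p = 0.0131, limma). Without KI GMP-like array 3 the adjusted p was 0.0505 and the difference 3.44. Against WT array 2 alone it was 3.93 (adjusted p = 0.00444, limma).

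In ST-HSC, H19 read 8.08, 8.24 and 8.47 in KI and 8.11, 9.44 and 7.39 in WT. The KI arrays lay inside the WT range, and the difference of −0.05 (95% CI −1.35 to 1.26) was not called (adjusted p = 0.985, limma). In order of level, KI GMP-like cells, WT ST-HSC and KI ST-HSC each overlapped the next, and WT GMP came last with no overlap. The difference between the populations was 3.61 (SE 0.834) and did not pass over all probe sets (adjusted p = 0.206, limma). With the 4 WT arrays of high Xist left out, the difference was 5.10 with an adjusted p of 0.0241 (limma), since WT ST-HSC array 2 was the highest of its group and the ST-HSC difference became −1.17 (adjusted p = 0.0744, limma). Such a fit leaves a single WT array in each population, and its spread is taken to be that of the other groups.

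Cdkn1c encodes p57, an inhibitor of cyclin-dependent kinases that keeps blood stem cells quiescent in mice. Cdkn1c read 7.31, 7.38 and 6.34 in KI ST-HSC and 6.91, 8.21 and 7.03 in WT ST-HSC, with overlapping groups and a difference of −0.37 (adjusted p = 0.763, limma). In GMP it read 4.95, 4.76 and 4.52 in KI and 4.37, 4.19 and 3.88 in WT, so that every KI array lay above every WT array. The difference of 0.60 (95% CI −0.20 to 1.40) did not pass (adjusted p = 0.523, limma). These GMP means lay above only 49.7% (KI) and 40.3% (WT) of all probe sets, near the middle of the array. Both ST-HSC groups lay above both GMP groups, as deposited and after subtraction of the array medians.

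Among the genes of the paternal copy besides Plagl1, no leading probe set was called. Igf2, the fetal growth factor, read 4.85, 4.96 and 4.59 in KI ST-HSC and 4.47, 4.77 and 4.34 in WT ST-HSC, with a difference of 0.28 (adjusted p = 0.883, limma). In GMP, Igf2 read 3.98, 6.29 and 4.82 in KI and 3.58, 4.19 and 4.26 in WT, with KI array 2 far above the rest and a difference of 1.02 (95% CI −0.00 to 2.04, adjusted p = 0.349, limma). Its group means lay above 37.9% to 53.9% of all probe sets, near the middle of the array. The other Igf2 probe set differed by 0.91 in ST-HSC and 0.10 in GMP. H19 and Igf2 share an enhancer, and in GMP only the first was called, although no test of their difference was made.

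Dlk1, a transmembrane Notch-family ligand of fetal progenitors, read 7.92, 7.93 and 8.60 in KI ST-HSC and 7.64, 7.78 and 6.58 in WT ST-HSC. The groups did not overlap, and the difference of 0.82 (95% CI −0.27 to 1.91) was not called (adjusted p = 0.557, limma). In GMP it read 4.69, 4.47 and 3.92 in KI and 6.32, 4.55 and 4.46 in WT, a difference of −0.75 (adjusted p = 0.571, limma). Like Cdkn1c, Dlk1 was higher in both ST-HSC groups than in both GMP groups as deposited, and after subtraction of the array medians the ranges of WT ST-HSC and WT GMP overlapped.

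Ndn encodes necdin, a growth-restraining protein that favors quiescence of stem cells in mice. In ST-HSC its leading probe set read 7.68, 8.40 and 8.81 in KI and 7.57, 8.56 and 7.05 in WT, a difference of 0.57 (adjusted p = 0.702, limma). In GMP it read 5.46, 6.20 and 6.71 in KI and 6.43, 7.52 and 6.75 in WT, with overlapping groups and a difference of −0.78 (adjusted p = 0.516, limma).
Ndn had the most probe sets, 8 in all, and 4 of those that do not lead had all KI GMP-like arrays below all WT GMP arrays, as 9.7% of all probe sets did. Among them 1435383_x_at read 2.85, 3.10 and 2.72 in KI against 4.21, 6.27 and 4.85 in WT, a difference of −2.22 that did not pass (adjusted p = 0.0890, limma). Probe sets 1435382_at and 1455792_x_at differed by −2.07 and −1.65 and were not called either. In ST-HSC the same probe sets differed by −0.35, −0.39 and 0.33.

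Peg3, a zinc finger gene, read 3.86 to 5.30 in the ST-HSC arrays and 4.09 to 6.22 in the GMP arrays, with differences of 0.19 and −0.72 and adjusted p of 0.933 and 0.592 (limma). Its high GMP value was WT array 3 alone. Mest, which encodes a hydrolase-like protein of the endoplasmic reticulum, read 5.64 to 7.47 in ST-HSC and 5.58 to 6.70 in GMP, with differences of 0.05 and 0.40 and adjusted p of 0.978 and 0.768 (limma). The groups of both genes overlapped in both populations by these probe sets. Of the other Peg3 probe sets, 1433924_at read 3.38, 3.31 and 3.21 in KI GMP-like cells and 3.79, 5.00 and 3.43 in WT GMP, with every KI array below every WT array, and its difference of −0.77 did not pass (adjusted p = 0.653, limma).

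**Figure D2:**
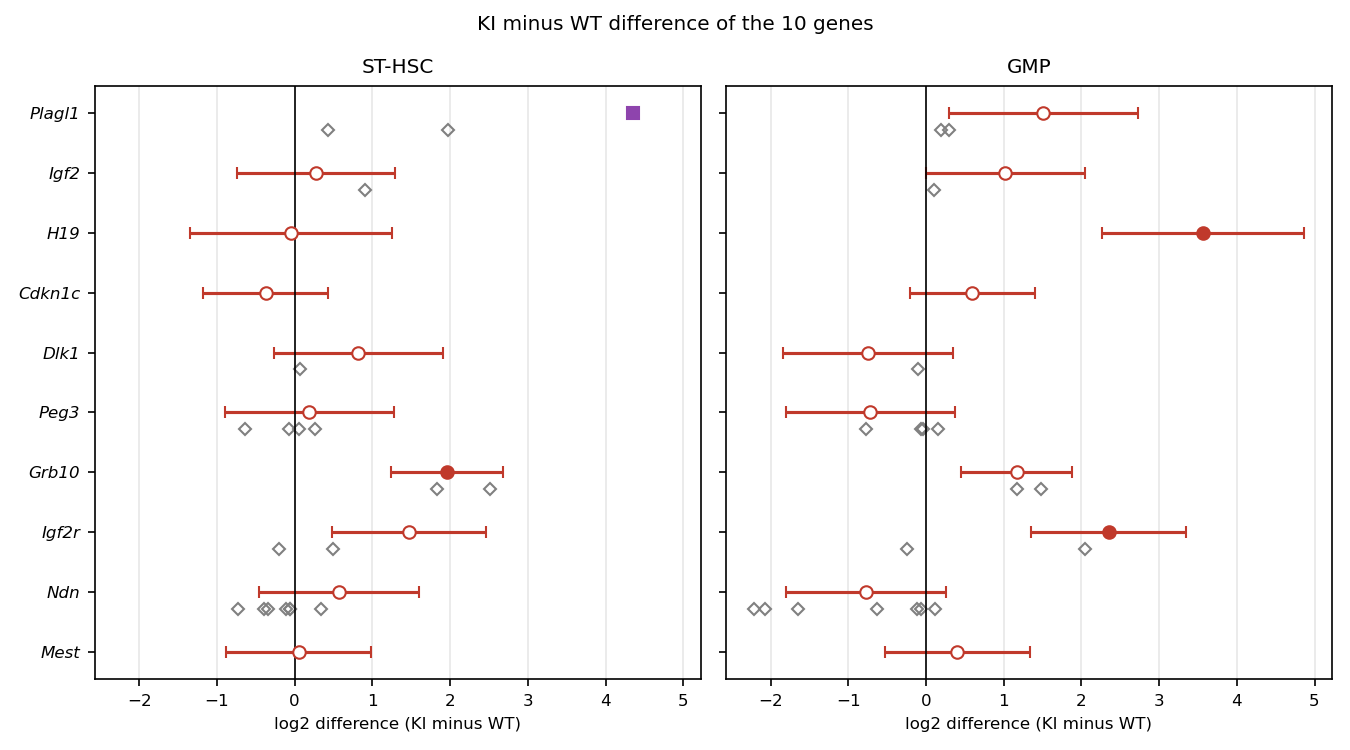
KI minus WT log2 difference (x axis) of each gene (y axis) in ST-HSC and GMP, with the 95% CI of the limma fit for the leading probe sets. Filled circles are called at an adjusted p under 0.05, the purple square is the Plagl1 difference that was not tested (4.35), and gray diamonds are the other probe sets. Grb10 was called in ST-HSC, H19 and Igf2r in GMP.

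The median difference of the 9 genes in ST-HSC was 0.28, against −0.02 over all genes, and that of the 10 genes in GMP was 0.81, against −0.03. KI arrays all lay above WT arrays for 3 of 9 genes in ST-HSC (Dlk1, Grb10 and Igf2r) and 4 of 10 in GMP (H19, Cdkn1c, Grb10 and Igf2r), against 10.9% and 8.26% of all genes. For the difference between the populations none of the 9 was called (2 had an unadjusted p under 0.05 by limma, H19 and Dlk1), and 0.0495% of all genes were.

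Grouped by the parental copy that is known to be expressed in most mouse tissues, a grouping made after the values were seen, the 4 genes of the maternal copy were those whose KI arrays all lay above the WT arrays in GMP by their leading probe sets. Their median difference there was 1.76 with a range of 0.60 to 3.57. The 6 genes of the paternal copy, Plagl1 included, had a median of −0.16 and a range of −0.78 to 1.51, and KI and WT arrays overlapped in each by the leading probe sets. Other probe sets of the paternal genes did not overlap in GMP, 2 of Plagl1 with all KI arrays above and 1 of Peg3 and 4 of Ndn with all below, so this split depends on the probe set taken. In ST-HSC the medians were 0.71 for the 4 genes and 0.28 for 5 (Plagl1 left out). The arrays do not separate the parental copies, and no test of this grouping was made.

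WT ST-HSC array 2, the WT array of low Xist, was above both other WT arrays in 7 of the 10 genes, by 1.69 for H19, 1.24 for Cdkn1c, 1.25 for Ndn and 1.24 for Grb10 over their mean. In GMP the corresponding array was above the others in 3 of the 10. The same share over all genes was not taken, so these counts describe the arrays and are not a result about the 10 genes. For the other WT arrays, differences that go with Xist and with genotype cannot be told apart. With Xist as a covariate the H19 (adjusted p = 0.0755) and Igf2r (adjusted p = 0.0851) calls in GMP were lost while Grb10 in ST-HSC kept its call (all by limma). The covariate had a single slope over both populations, which rested almost entirely on WT array 2 against WT arrays 1 and 3. Array 2 differed from their mean in ST-HSC and GMP by 1.69 and −0.54 for H19, −1.09 and 1.01 for Igf2r, and 1.24 and 0.53 for Grb10. The ST-HSC arrays thus shifted the GMP estimates, and these fits cannot say whether the lost calls go with Xist. In such bulk samples, fewer cells of a type and less RNA per cell cannot be told apart.

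Of 31 neighbors of these genes in their imprinted domains with a probe set, none was called in ST-HSC and 1 rose in GMP, near the shares of all genes (1.33% higher and 1.68% lower in ST-HSC, 1.19% and 1.4% in GMP). It was Osbpl5, an oxysterol-binding protein gene of the Cdkn1c domain. Osbpl5 read 7.47, 7.16 and 7.33 in KI GMP-like cells and 5.15, 5.01 and 5.43 in WT GMP, a rise of 2.12 (adjusted p = 0.0119, limma). The medians of the neighbors were −0.04 in ST-HSC and 0.03 in GMP. The ST-HSC differences ranged from −0.40 to 1.87, the latter for Kcnq1ot1 of the Cdkn1c domain (adjusted p = 0.331, limma). Osbpl5 differed by 1.16 in ST-HSC (adjusted p = 0.142, limma). Near Grb10, Ddc and Cobl differed by −0.40 and −0.04 in ST-HSC. LOC102631979, the nearest gene on one side, is not on the list of imprinted neighbors. It differed by 0.99 in ST-HSC (adjusted p = 0.0738, limma) and rose by 1.61 in GMP (adjusted p = 0.00841, limma). Beside Igf2r, Airn and Slc22a2 differed by 0.29 and 0.43 in GMP. Meg3 and Rian, expressed from the maternal copy of the Dlk1 domain, differed by −0.04 and −0.28 in ST-HSC.

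**Figure D3:**
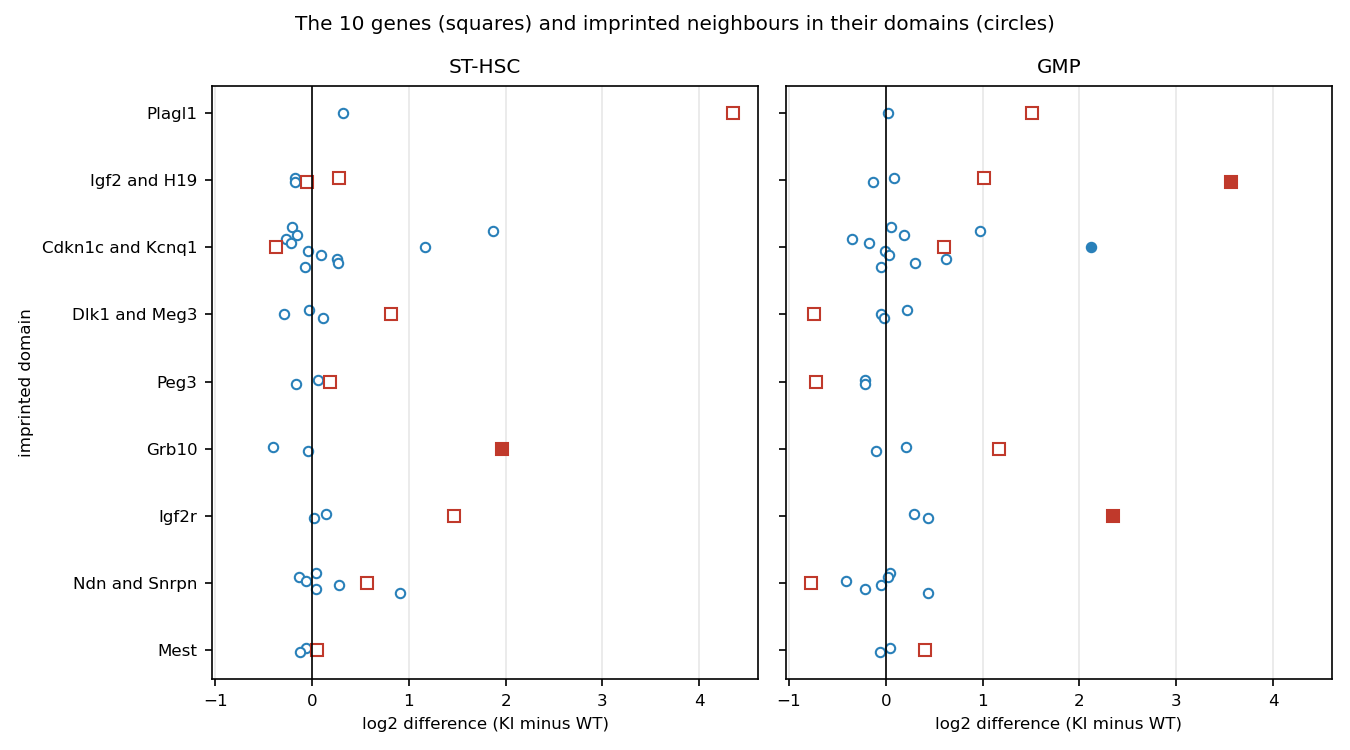
KI minus WT log2 difference (x axis) of the 10 genes (squares) and of 31 further genes of their imprinted domains (circles), by domain (y axis), in ST-HSC and GMP, with filled symbols for an adjusted p under 0.05 and an unfilled square for Plagl1 in ST-HSC. The neighbors' medians are −0.04 and 0.03, and Osbpl5 (2.12 in GMP) is the neighbor that was called.

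Of 66 other imprinted genes listed, 57 had a probe set, and 2 rose and 1 fell in each population, beside the shares of all genes given above. In ST-HSC, Peg10, a retrotransposon-derived gene of the paternal copy, read 4.98, 5.34 and 5.41 in KI and 4.34, 3.47 and 3.78 in WT. It rose by 1.38 (adjusted p = 0.00783, limma). Gnas, which encodes the stimulatory G protein alpha subunit, rose in ST-HSC by 0.60 (adjusted p = 0.0363, limma) in 1 of its 5 probe sets. The GMP differences of Peg10 and Gnas, 0.38 (adjusted p = 0.487) and 0.51 (adjusted p = 0.0715, both limma), were not called. In GMP, Osbpl5 rose as above, and Dcn, the proteoglycan decorin, read 8.62, 6.81 and 7.03 in KI and 4.14, 4.19 and 4.38 in WT, a rise of 3.25 (adjusted p = 0.00214, limma) in 1 of 2 probe sets. Gatm, the first enzyme of creatine synthesis, which is imprinted in mouse placenta, fell in both populations. It read 6.64, 6.24 and 6.22 in KI ST-HSC and 8.56, 8.75 and 9.91 in WT ST-HSC, a change of −2.71 (adjusted p = 0.00428, limma). In GMP it read 5.58, 4.58 and 4.40 in KI and 9.30, 9.87 and 9.59 in WT, a change of −4.74 (adjusted p = 0.000162, limma). The medians over the 57 genes were −0.04 and 0.03, near those of all genes.

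The insulin-like growth factor pathway, in which Igf2, Igf2r and Grb10 act, had 26 of 27 listed genes on the array. In ST-HSC 1 rose and 1 fell, where 1.33% and 1.68% of all genes did, and in GMP 1 rose and 2 fell, where 1.19% and 1.4% did. Igf1r, the receptor that Grb10 binds, read 10.65, 10.86 and 10.88 in KI ST-HSC and 10.00, 9.59 and 8.95 in WT ST-HSC, a rise of 1.29 (adjusted p = 0.0263, limma), called in 3 of 5 probe sets. In GMP its leading probe set differed by 0.86 and was not called (adjusted p = 0.123, limma). Of the 5 probe sets, 1 other was called higher in GMP, by 1.44 (adjusted p = 0.0463, limma). Igfbp4, a binding protein that holds the growth factors in solution, was lower in both populations. It read 11.46, 11.45 and 11.55 in KI ST-HSC and 12.07, 12.21 and 12.11 in WT ST-HSC, a change of −0.64 (adjusted p = 0.0164, limma). In GMP the change was −1.30 (adjusted p = 0.000289, limma), in all 6 probe sets. Also in GMP, Hmga2, a chromatin protein of fetal stem cells, fell by 1.74 (adjusted p = 0.0437, limma) and Foxo1, a transcription factor held in check by insulin signals, rose by 1.35 (adjusted p = 0.0454, limma) in 1 of 4 probe sets.

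**Figure D4:**
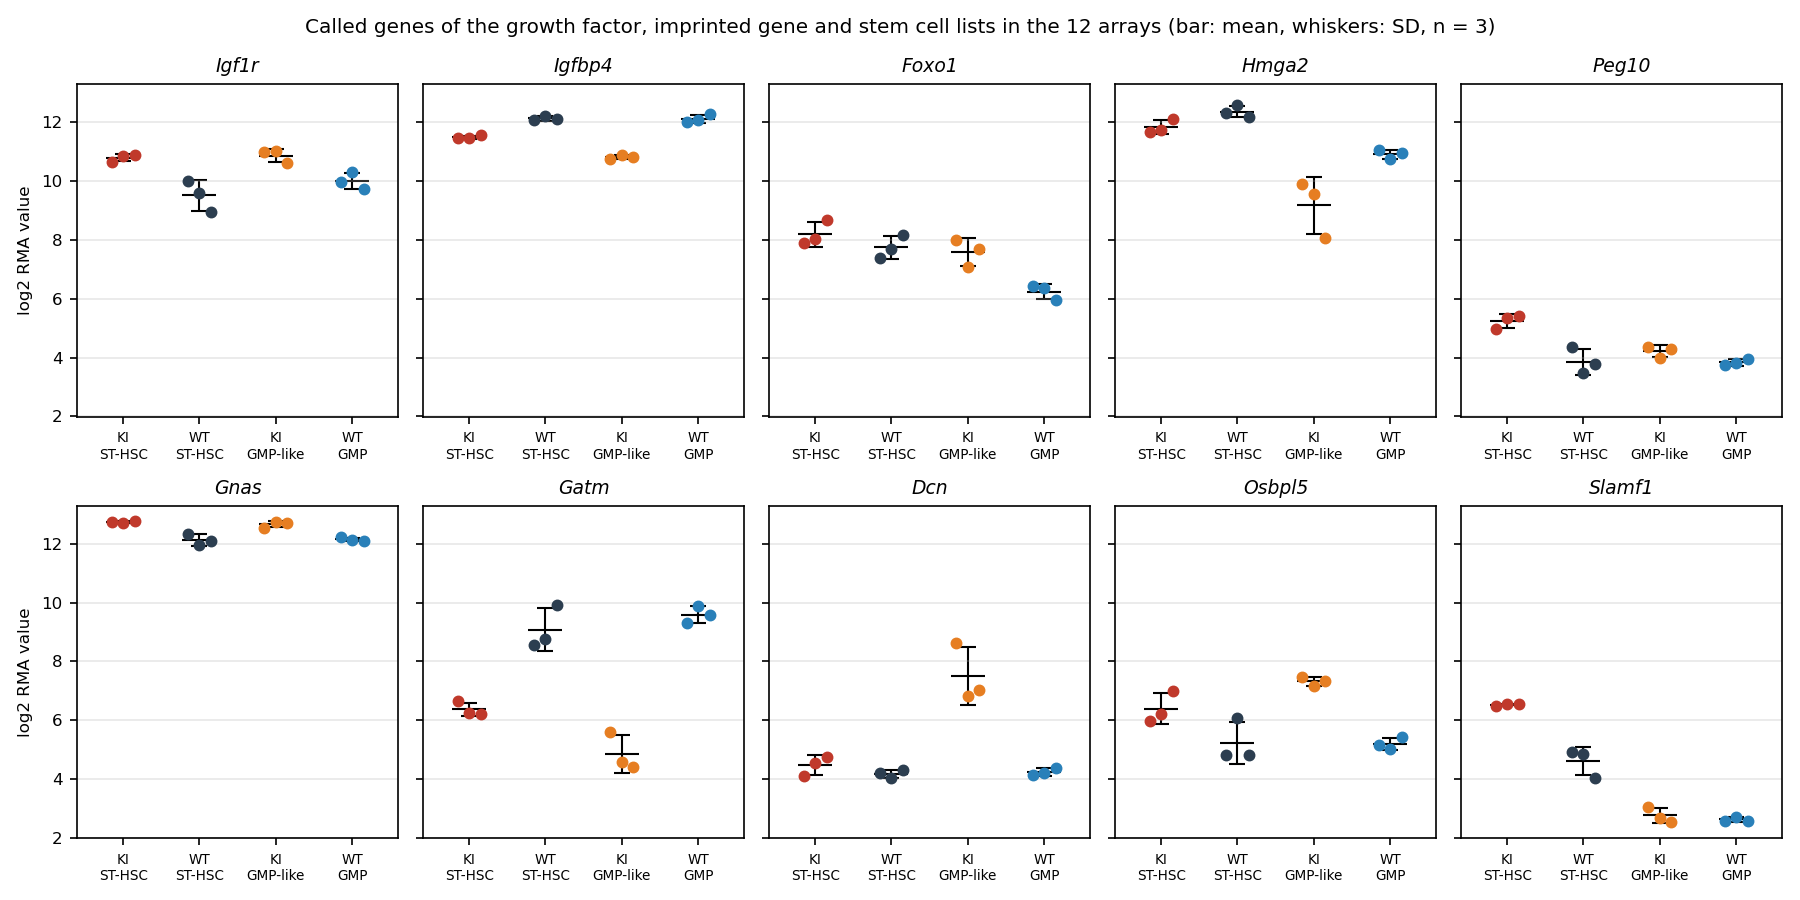
Log2 RMA values (y axis) of 10 genes called in either population, from the lists of growth factor, imprinted and stem cell genes, in the 4 groups (x axis), 1 point per array, with a bar for the mean and whiskers for the SD of 3 arrays. By these leading probe sets, Igf1r, Peg10, Gnas and Slamf1 are called higher in KI ST-HSC, and Dcn, Osbpl5 and Foxo1 in KI GMP-like cells. Igfbp4 and Gatm are called lower in KI cells of both populations, and Hmga2 in KI GMP-like cells. In GMP, all KI arrays of Igf1r, Peg10 and Gnas also lie above all WT arrays, without a call.

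None of the genes listed as relatives or targets of Plagl1 was called in either population, out of 11 measured. These 11 include none of the imprinted genes followed above, such as H19, which was called in GMP. Plag1 and Plagl2, the other members of its family, differed by 0.27 and −0.19 in ST-HSC and by −0.22 and −0.04 in GMP. Cdkn1a, which encodes the cell cycle inhibitor p21, differed by 0.33 and 0.74, and Socs3, an inhibitor of cytokine signals, by 1.77 (adjusted p = 0.314) and 1.93 (adjusted p = 0.233, both limma). None of 7 CDK inhibitors and none of 17 genes of imprint maintenance was called in either population. Of all genes, 1.33% were called higher and 1.68% lower in ST-HSC, and 1.19% and 1.4% in GMP. No call in lists of this size is near these shares. The CDK inhibitors had medians of −0.01 and 0.64.

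Over the 12 arrays, each centred on its population's mean, the genes whose leading probe sets followed Plagl1 most closely were Etv4 (r = 0.947), Sipa1l1 (0.943), Clec4d (0.941), Nsmf (0.940) and Fam214a (0.939). Etv4 is an ETS-family transcription factor and Clec4d a C-type lectin of myeloid cells. Of these, Clec4d and Sipa1l1 were also among the closest 5 without centring. The 12 arrays share the genotype contrast, so any gene with a large KI difference in ST-HSC tends to rank high. Among the other 9 imprinted genes Grb10 had the highest r with Plagl1, 0.803, which 216 genes exceeded, followed by Igf2r with 0.616 and Igf2 with 0.462. Cdkn1c had −0.27 and Peg3 −0.04.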

How the data were processed

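RNA of sorted newborn liver cells was amplified from 10 ng by the authors and hybridized to Affymetrix MG430 v2 arrays, 1 sample per array. The deposited values are log2 values of 45101 probe sets, which the authors normalized by RMA in R-Bioconductor. RMA aligns the distributions of the arrays and compresses differences at low signal. The RMA implementation has a version not given in the sources used here. Arrays carry no read depth, and their number, 3 a group, limits the precision.

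After 64 control probe sets were left out, 45037 entered a limma fit (version 3.58.1, R 4.3.3) over all 12 arrays with 4 group means (8 residual and 2.52 prior degrees of freedom). KI minus WT was tested in ST-HSC, in GMP and as a difference of these differences, two-sided, with Benjamini-Hochberg adjustment over all probe sets and calls at an adjusted p under 0.05. No filter on low values was used. The fit was tested on simulated data. An exact permutation test of 3 against 3 arrays cannot go below 0.1. Intervals are 95% and not adjusted.

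The platform annotation gives 34945 probe sets 1 symbol, 932 several and 9160 none. Named genes are all probe sets of the 10 genes, up to 4 called genes of each list, and the 5 genes most correlated with Plagl1. The genes and lists were chosen with earlier results of these data known, and the domain neighbors and the grouping by parental copy after the files had been seen. Sequences are from RefSeq (GRCm38.p6), and array coordinates are not given. The alternatives are listed with their effects in the closing section.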

Additional observations from a re-analysis of the deposited data

How the results depend on the processing

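The count of 1 called gene in ST-HSC became 0 in a fit of only the 6 arrays (Grb10 adjusted p = 0.0581, limma), with a log2 limit of 2, which the Grb10 difference of 1.96 just misses, and by SAM, which called 162 probe sets of the whole array. The count of 2 in GMP became 0 in a fit of only the 6 arrays (H19 0.0781, Igf2r 0.137), with the Xist level as a covariate, and by SAM, which called 43 in all. With the WT arrays of high Xist left out, an alternative chosen after seeing the data, the GMP count was 1 (H19) and that of the difference between the populations 1 (H19). Leaving out each array in turn gave 0 to 1 in ST-HSC, 1 to 3 in GMP and 0 to 0 for the difference. The ST-HSC call lost was Grb10, without KI ST-HSC array 2 (adjusted p = 0.0515, limma). Where fewer arrays entered, fewer residual degrees of freedom remained, and the cause of the other changes was not tested. The mean over a gene's probe sets in place of the leading one brought Grb10 in GMP past the threshold (1.27, adjusted p = 0.0418, limma).

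No called direction was reversed by these settings or by leaving out 1 array, and the signs of some uncalled differences were. Among the other probe sets, the one shared with Airn reversed the called rise of Igf2r in GMP, with −0.25, itself not called. With Xist as a covariate, Ndn in ST-HSC was −0.19. With the average over a gene's probe sets, Peg3 in ST-HSC was −0.0416, Ndn in ST-HSC −0.10 and the Igf2 difference between the populations −0.0327. With the WT arrays of high Xist left out, Peg3 in ST-HSC was −0.11, Ndn in ST-HSC −0.27, and the differences between the populations were 0.0170 for Peg3, −0.52 for Igf2r and −0.46 for Mest. On other probe sets, Peg3 was −0.64 and −0.0788 in ST-HSC, 0.16 in GMP and 0.58, 0.0451 and 0.0983 for the difference between the populations, and that of Igf2 was −0.81. Igf2r was −0.20 in ST-HSC on one probe set, and −0.25 in GMP and −0.74 for the difference on the one shared with Airn. Ndn was −0.35, −0.39, −0.74, −0.0665, −0.0633 and −0.11 in ST-HSC, 0.11 in GMP and 0.11, 0.00213 and 0.22 for the difference. Leaving out 1 array gave −0.51 to 0.51 for H19, −0.61 to 0.0400 for Cdkn1c, −0.21 to 0.51 for Peg3 and −0.34 to 0.58 for Mest in ST-HSC, and −0.17 to 0.74 for the Mest difference.

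The deviations of same-numbered KI and WT arrays from their group means correlated at 0.0742, 0.0636 and 0.0343 in ST-HSC. In GMP they correlated at −0.0102, −0.0381 and −0.00398. These values show no pairing of KI with WT arrays by number within a population. ST-HSC and GMP arrays of the same genotype and number were not compared. Xist was high in WT arrays 1 and 3 of both populations and low in WT array 2 of both. Whether ST-HSC and GMP samples of the same number came from the same animals was not tested. The fit over 12 arrays and the difference between the populations treat them as independent. With the replicate number as a block, the counts stayed at 1 in ST-HSC, 2 in GMP and 0 for the difference. Over the whole array the calls went from 996 to 617 in ST-HSC and from 959 to 468 in GMP with the block, and the GMP calls to 246 in a fit of only the 6 arrays, 607 with the Xist covariate, 449 with the WT arrays of high Xist left out and 319 with a log2 limit of 2, which left 426 in ST-HSC.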

Other observations

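The 3 nearest measured genes on either side of each gene in RefSeq gave 54 genes, of which 1 fell in ST-HSC, where 1.68% of all genes did, and 2 rose and 1 fell in GMP, where 1.19% and 1.4% did. Utrn, which encodes the cytoskeletal protein utrophin, lies 3 measured genes away from Plagl1. It differed by 1.05 in ST-HSC (adjusted p = 0.0612, limma) and rose by 1.69 in GMP (adjusted p = 0.00701, limma). The measured genes next to Plagl1 were not called, Sf3b5 with −0.04 in ST-HSC and −0.26 in GMP, and Zc2hc1b with −0.13 and 0.32. LOC102631979, next to Grb10, also rose in GMP, with the values given above. Lsp1, a leukocyte-specific actin-binding protein gene near H19, fell by 4.77 in ST-HSC (adjusted p = 0.00268, limma) and by 3.24 in GMP (adjusted p = 0.0268, limma).

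Other cell types were read from marker lists. Of 8 hepatocyte genes, Afp (alpha-fetoprotein) and Hnf4a (a hepatocyte transcription factor) fell in both populations, Afp by 1.53 and 1.92 (1 of its 5 probe sets) and Hnf4a by 2.81 and 3.22 (3 of its 4 probe sets in ST-HSC and 1 of 4 in GMP). The group means of 2 of the 8 lay below the median level in KI GMP-like cells, and of 0 in the other groups. Of 6 endothelial genes, Pecam1 rose by 1.79 in GMP (adjusted p = 0.0432, limma), and of 7 stromal genes none was called. Of 6 erythroid genes, Rhag rose by 1.38 in ST-HSC. It read 4.28 to 4.93 in KI and 2.99 to 3.21 in WT arrays, below the array medians. Of 9 long-term stem cell genes Slamf1 alone was called in ST-HSC.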
